A study of Mus musculus with 6 samples.

Results

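The NRF2 antioxidant program comprised 10 genes, chosen by name: the transcription factor gene Nfe2l2, its inhibitor Keap1, the glutathione, thioredoxin and quinone defence genes Nqo1, Gclc, Gclm, Txnrd1, Srxn1, Prdx1 and Gsr, and Osgin1. All 10 were found once each among the 23398 genes of the deposited table, and all 10 passed the filter on low values (at least 1 FPKM in at least 3 libraries), as did 10682 genes in all. The well known targets Hmox1 and Slc7a11 are not part of the 10 and are given among the neighbouring genes. Dendritic cells, the antigen-presenting cells of the immune system, were cultured from mouse bone marrow and were exposed for 12 hours to nanoparticles of calcium hydroxide, Ca(OH)2, or to the vehicle. There were 3 libraries per group, made from 1 µg of total RNA each. No altered gene is named for either group in the sources used here. The strain, sex and age of the mice and the particle dose are not given there, nor whether the 3 libraries came from separate animals. The p-values therefore measure the spread between these libraries, which may be technical.

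NRF2, the protein of Nfe2l2, is held in the cytoplasm and marked for degradation by KEAP1, a sensor whose cysteines react with oxidants and electrophiles. When KEAP1 is modified, NRF2 enters the nucleus, pairs with small MAF proteins and binds antioxidant response elements near genes that make and recycle glutathione, reduce thioredoxin and detoxify quinones. In dendritic cells and macrophages this program is known for limiting oxidative damage and tempering inflammatory gene expression after activation.

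Because the members share this regulator, the RefSeq start-site windows of the members (250 bases before to 50 after the start, build GRCm38.p6) were read for the response element TGACNNNGC on both strands. The table held windows for 8 of the 10 genes, 10 windows in all, and none for Gclc and Gsr. The element was found in 5 of the 10 windows, 1 each for Nfe2l2, Srxn1, Gclm, Prdx1 and Txnrd1, and in 12.4% of all 32851 windows of the same length. A narrower form, TGANTCAGC, which contains the AP-1 letters TGANTCA and overlaps TGACNNNGC wherever N is C, was searched after the windows had been read. It was found in the windows of Srxn1, Prdx1 and Osgin1 and in 1.19% of all windows. Neither form was found in the windows of Nqo1 and Keap1 or in the other windows of Txnrd1. The windows of 4 members are shown because they carry these letters in the 3 members of the thioredoxin arm and in Osgin1, the member that was lower. Those of Nfe2l2 and Gclm, which also carry TGACNNNGC, are not shown, so the choice does not tie the letters to the genes that changed. Capitals mark the matches to either form, and each window reads 5′ to 3′ on the gene's own strand, so an element on the opposite strand appears as its reverse complement.
Srxn1, chr2:152105274-152105573, plus strand: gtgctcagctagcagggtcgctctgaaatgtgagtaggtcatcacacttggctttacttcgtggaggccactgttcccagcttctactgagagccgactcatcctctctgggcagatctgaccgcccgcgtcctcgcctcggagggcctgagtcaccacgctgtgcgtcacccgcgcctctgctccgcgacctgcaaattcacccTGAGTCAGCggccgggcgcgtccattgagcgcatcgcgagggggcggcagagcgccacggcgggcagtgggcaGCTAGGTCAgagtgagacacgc
Prdx1, chr4:116685349-116685648, plus strand: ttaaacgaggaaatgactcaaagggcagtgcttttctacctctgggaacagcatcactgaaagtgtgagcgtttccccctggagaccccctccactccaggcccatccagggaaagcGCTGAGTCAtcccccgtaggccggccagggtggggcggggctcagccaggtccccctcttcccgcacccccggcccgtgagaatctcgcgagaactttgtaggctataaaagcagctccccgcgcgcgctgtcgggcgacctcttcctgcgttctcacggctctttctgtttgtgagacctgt
Txnrd1, chr10:82858956-82859255, plus strand, the second of its 3 windows: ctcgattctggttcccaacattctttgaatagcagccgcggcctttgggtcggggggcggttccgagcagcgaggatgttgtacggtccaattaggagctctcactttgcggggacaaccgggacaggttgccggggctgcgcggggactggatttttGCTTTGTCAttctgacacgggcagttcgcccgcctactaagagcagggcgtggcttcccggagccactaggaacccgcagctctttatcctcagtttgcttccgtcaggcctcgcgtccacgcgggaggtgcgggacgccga
Osgin1, chr8:119436897-119437196, plus strand: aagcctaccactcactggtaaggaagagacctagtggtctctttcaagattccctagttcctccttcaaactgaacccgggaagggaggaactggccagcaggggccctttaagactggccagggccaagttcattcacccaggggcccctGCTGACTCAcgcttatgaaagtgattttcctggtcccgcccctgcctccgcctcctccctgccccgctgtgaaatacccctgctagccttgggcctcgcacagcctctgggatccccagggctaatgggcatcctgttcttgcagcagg
In Srxn1 the narrower element starts 45 bases before the start site and a match to TGACNNNGC, as GCTAGGTCA, lies after it. The narrower element starts in Osgin1 99 bases before it, and in Prdx1 133 bases before it, where the same letters match both forms. In Txnrd1 the match, GCTTTGTCA, starts 92 bases before the start of that window's transcript. The match in the Nfe2l2 window, TGACTCCGC, starts 240 bases before the start. A match describes letters in a window and not a bound site, and no binding was measured here.

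The 6 libraries held 17283338 to 21978652 recovered reads. Nanoparticle library 1 stood apart from libraries 2 and 3 of its group. It differed by over 2-fold from the mean of those 2 libraries in 1261 of the 10682 tested genes (11.8%), and in 2 of the 10 members. Changes of the members and counts of the gene lists are therefore given with and without it. Of the dendritic cell markers, Itgax, Cd74 and the MHC class II genes were abundant (Itgax had a vehicle mean of 449 FPKM), while Flt3 did not reach 1 FPKM in any library and Cd209a, at a vehicle mean of 5.69 FPKM, was at 0, 0.0763 and 0 with nanoparticles. The summed level of the 11 dendritic cell markers was 6143 to 6585 FPKM in vehicle, 3548 in nanoparticle library 1, and 7232 and 7864 in libraries 2 and 3. Most of this sum came from Cd74 (vehicle mean 4116 FPKM), so it does not describe the lower markers, which moved in both directions. Ccr7 went from a mean of 2.29 to 112 FPKM and Irf8 from 8.68 to 21.2. Clec10a fell from a mean of 6.92 to 0.786 FPKM and Zbtb46 from 3.97 to 2.30. All 11 macrophage markers reached 1 FPKM, summing to 1189 to 1341 FPKM in vehicle and 1483 to 1875 with nanoparticles. They too moved in both directions, with Cd14 going from a mean of 60.0 to 531 FPKM and Mrc1 from 56.3 to 7.77. Of 12 neutrophil markers 5 reached 1 FPKM, with sums of 265 to 299 FPKM in vehicle and 180 to 253 with nanoparticles. These markers moved in opposite directions: Mmp8 went from a vehicle mean of 245 FPKM to 129, 133 and 129 FPKM, and S100a8 from 34.9 to 50.1, 90.3 and 109 FPKM. In nanoparticle libraries 2 and 3 alone, S100a9 (13.2 and 10.2 FPKM), Ngp (4.30 and 3.23) and Camp (1.83 and 1.99) were also above their vehicle libraries by more than 1 FPKM, while Ly6g, Mpo and Elane were near 0. Mast cell and basophil markers summed to 2.69 to 4.90 FPKM in vehicle and 9.63 to 25.0 with nanoparticles, where Hdc held 24.1, 6.69 and 6.76 FPKM. Gata2 of the same list went the other way, from a mean of 2.88 to 1.31 FPKM (limma adjusted p = 0.0190). None of the 5 lymphocyte markers, and neither of the 2 erythroid markers in the table, reached 1 FPKM. The part of these shifts in the results below was not tested. In bulk RNA a change in the mix of cells and a change of RNA per cell cannot be told apart.

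With nanoparticles, the sensor pair, thioredoxin reductase 1 and sulfiredoxin were higher and Osgin1 was lower, while the glutathione genes, Prdx1 and Nqo1 did not pass the test across all 6 libraries. In the limma fit, 5 of the 10 members passed an adjusted p of 0.05, 4 higher and 1 lower, where 33.2% of all tested genes passed in either direction, 17.0% higher and 16.2% lower. The groups did not overlap in 8 of the 10 members, 7 higher and 1 lower, against 52.1% of all tested genes, 25.9% higher and 26.2% lower. The median log2 change of the members was 0.63, against -0.001 for all tested genes. Without nanoparticle library 1 all 10 members passed, 9 higher and 1 lower, but so did 64.8% of all tested genes, 34.3% higher and 30.5% lower.

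**Figure D1:**
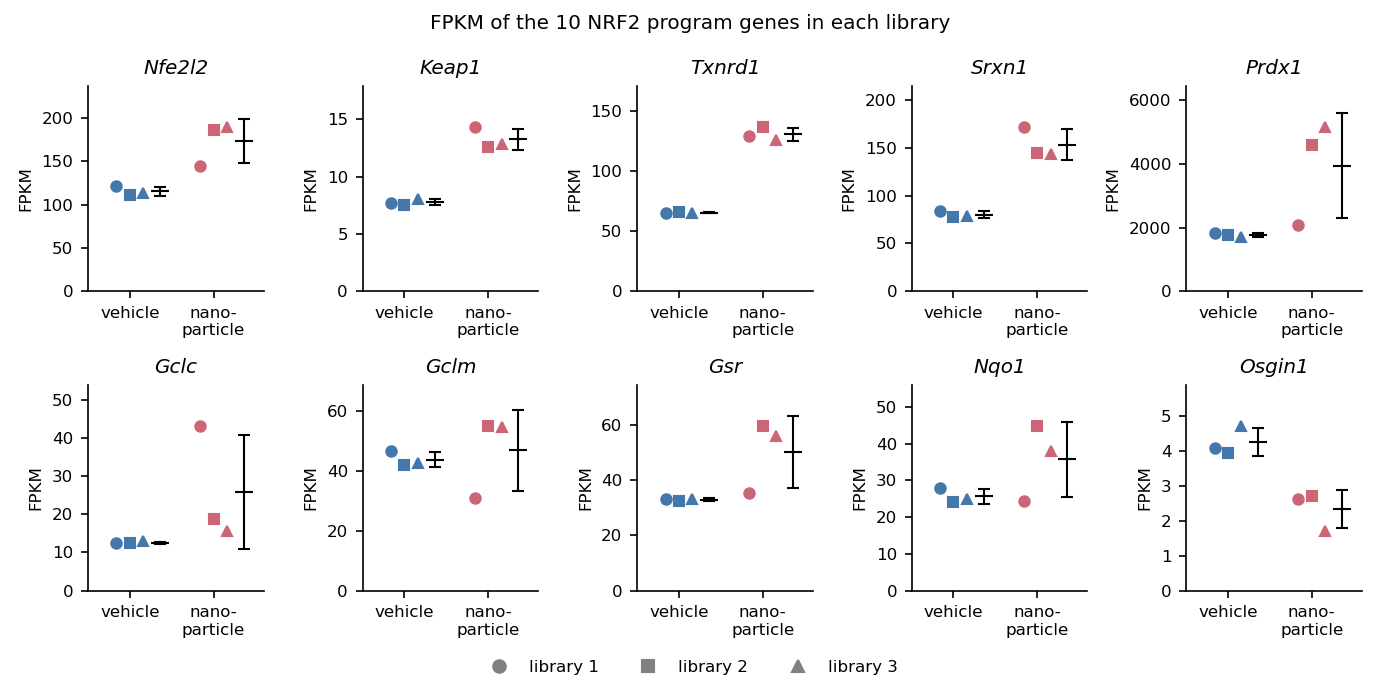
FPKM (vertical axes, each starting at 0) of the 10 genes in the 3 vehicle and 3 nanoparticle libraries. Symbols mark the library number, and black bars the mean ± SD of a group (n = 3). Nanoparticle library 1 (circles) sits near or below the vehicle level for Prdx1, Gsr, Nqo1 and Gclm and far above libraries 2 and 3 for Gclc, whereas Txnrd1, Srxn1 and Keap1 were raised in all 3 nanoparticle libraries.

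The transcription factor gene and its inhibitor were both higher. Nfe2l2 (ENSMUSG00000015839, minus strand of chromosome 2, 75675513 to 75704641) was at 122, 111 and 114 FPKM in vehicle libraries 1 to 3 and at 144, 186 and 190 FPKM in nanoparticle libraries 1 to 3. The groups did not overlap, and nanoparticle library 1 was the lowest of the treated libraries. The means were 116 ± 5.41 and 173 ± 25.2 FPKM (SD, n = 3 each), resting on 8371 to 13873 reads per library, and the log2 change was 0.57 (SE 0.146, limma adjusted p = 0.0260). Keap1 (ENSMUSG00000003308, minus strand of chromosome 9, 21229730 to 21239361) was at 7.71, 7.57 and 8.07 FPKM in vehicle and at 14.3, 12.6 and 12.9 FPKM with nanoparticles. Every treated library lay far above every vehicle library, and here library 1 was the highest. The log2 change of Keap1 was 0.70 (SE 0.0948, limma adjusted p = 0.00241), on 704 to 1166 reads per library. The call of Nfe2l2 was lost when any vehicle library or nanoparticle library 2 or 3 was left out (adjusted p 0.0672 to 0.115), with scaling by total reads (adjusted p = 0.210) and when each library was rescaled to the same sum of FPKM (log2 change 0.10, adjusted p = 0.414). That of Keap1 was lost with the last of these (adjusted p = 0.144).

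The choice of scale matters for all members. The deposited values follow a median-of-ratios scale. Scaling by recovered total reads moved the median over the 10682 genes to -0.28 (log2), and rescaling to equal sums of FPKM moved it to -0.44, with splits of 1107 higher against 3613 lower and 884 against 4241, in place of 1817 against 1733. By total reads 4 members passed, Keap1, Txnrd1 and Srxn1 higher and Osgin1 lower, where 44.2% of all tested genes passed, 10.4% higher and 33.8% lower. Relative to that median, the change of Nfe2l2 was 0.57 as deposited, 0.51 by total reads and 0.54 by sums, and that of Keap1 was 0.70, 0.67 and 0.72. Each scaling divides a library by a single constant and so shifts all genes almost alike. The near-equal values therefore follow from the arithmetic and do not test whether the changes hold across scales.

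The thioredoxin arm held the clearest increases. Thioredoxin reductase 1, the selenium enzyme that uses NADPH to reduce thioredoxin, is encoded by Txnrd1 (ENSMUSG00000020250, plus strand of chromosome 10, 82833951 to 82897712). Txnrd1 stood at 65.3, 65.7 and 64.9 FPKM in vehicle and at 129, 137 and 126 FPKM with nanoparticles. All treated libraries lay far above vehicle (ratio of means 2.00), and library 1 lay between the other nanoparticle libraries. The log2 change was 0.99 (SE 0.0999, limma adjusted p = 8.15e-04), and this call held under every scaling, filter, pseudocount and omission of a library tried. Txnrd1 overlaps Eid3 on its own strand, which reached 3.43 FPKM at most. Srxn1 (ENSMUSG00000032802, plus strand of chromosome 2, 152105516 to 152111376) encodes sulfiredoxin, which repairs peroxiredoxins that have been over-oxidised. It rose from 84.2, 77.3 and 78.8 FPKM to 172, 144 and 144 FPKM, with library 1 the highest. Its log2 change was 0.92 (SE 0.122, limma adjusted p = 0.00220). It missed the threshold only with rescaling to equal sums (log2 change 0.46, adjusted p = 0.0561).

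Prdx1 (ENSMUSG00000028691, plus strand of chromosome 4, 116685544 to 116700822), an abundant peroxiredoxin that breaks down hydrogen peroxide and is a substrate of sulfiredoxin, was the most abundant member. It was at 1824, 1779 and 1713 FPKM in vehicle and at 2066, 4592 and 5152 FPKM with nanoparticles. Library 1 lay just above the vehicle range at 1.17 times the vehicle mean, while libraries 2 and 3 averaged 2.75 times it. The log2 change of 1.05 (SE 0.366, 95% interval 0.16 to 1.93) did not pass over all 6 libraries (limma adjusted p = 0.0722). Without nanoparticle library 1 it was 1.46 (SE 0.0694, limma adjusted p = 1.0e-05).

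In the glutathione arm the catalytic subunit moved differently from the other genes. Glutamate-cysteine ligase, the rate-limiting enzyme of glutathione synthesis, is made of a catalytic subunit (Gclc) and a modifier subunit (Gclm). Gclc (ENSMUSG00000032350, plus strand of chromosome 9, 77754535 to 77794485) was at 12.4, 12.5 and 12.9 FPKM in vehicle and at 43.1, 18.8 and 15.6 FPKM with nanoparticles. The groups did not overlap, but library 1 held 3.43 times the vehicle mean, against 1.37 times for libraries 2 and 3. Its log2 change of 0.85 (SE 0.355, 95% interval -0.01 to 1.70) did not pass (limma adjusted p = 0.117), and without library 1 it was 0.42 (SE 0.0862, limma adjusted p = 0.00547).

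Gclm (ENSMUSG00000028124, plus strand of chromosome 3, 122245557 to 122270732) was at 46.7, 41.9 and 42.7 FPKM in vehicle and at 31.1, 54.9 and 54.5 FPKM with nanoparticles. Library 1 lay below all vehicle libraries and libraries 2 and 3 above them. The mean difference over all 6 libraries was small (log2 change 0.05, 95% interval -0.51 to 0.61, limma adjusted p = 0.885), a value whose sign turned with scaling by total reads, with rescaling to equal sums and without nanoparticle library 2 or 3. Without library 1 it was 0.32 (SE 0.0624, limma adjusted p = 0.00446). Gsr (ENSMUSG00000031584, plus strand of chromosome 8, 33652523 to 33698163), the glutathione reductase that regenerates reduced glutathione from its disulfide, was at 33.2, 32.5 and 33.3 FPKM in vehicle and at 35.5, 59.7 and 56.2 FPKM with nanoparticles. Its library 1 again lay close to vehicle, at 1.08 times the vehicle mean against 1.76 times for libraries 2 and 3. The log2 change was 0.56 (SE 0.204, limma adjusted p = 0.0793) with library 1 and 0.79 (SE 0.0530, limma adjusted p = 4.1e-05) without it.

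Nqo1 (ENSMUSG00000003849, minus strand of chromosome 8, 107388225 to 107403206), the quinone reductase often used as a readout of NRF2 activity, was at 28.0, 24.0 and 24.9 FPKM in vehicle and at 24.5, 44.7 and 38.0 FPKM with nanoparticles. Library 1 fell inside the vehicle range and libraries 2 and 3 lay above it. The log2 change was 0.42 (SE 0.224, 95% interval -0.12 to 0.97, limma adjusted p = 0.198), turning to -0.03 with rescaling to equal sums, and it was 0.67 (SE 0.0956, limma adjusted p = 0.00111) without library 1. Osgin1 (ENSMUSG00000074063, plus strand of chromosome 8, 119434124 to 119446256), named for its induction by oxidative stress, was the one member that was lower. It fell from 4.07, 3.94 and 4.69 FPKM to 2.61, 2.69 and 1.71 FPKM, with every treated library below every vehicle library. The log2 change was -0.66 (SE 0.150, limma adjusted p = 0.0168) and it stayed negative under all scalings, on 88 to 262 reads per library, the fewest of the 10 genes. Leaving out any vehicle library took the adjusted p of Osgin1 to between 0.0539 and 0.0755.

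**Figure D2:**
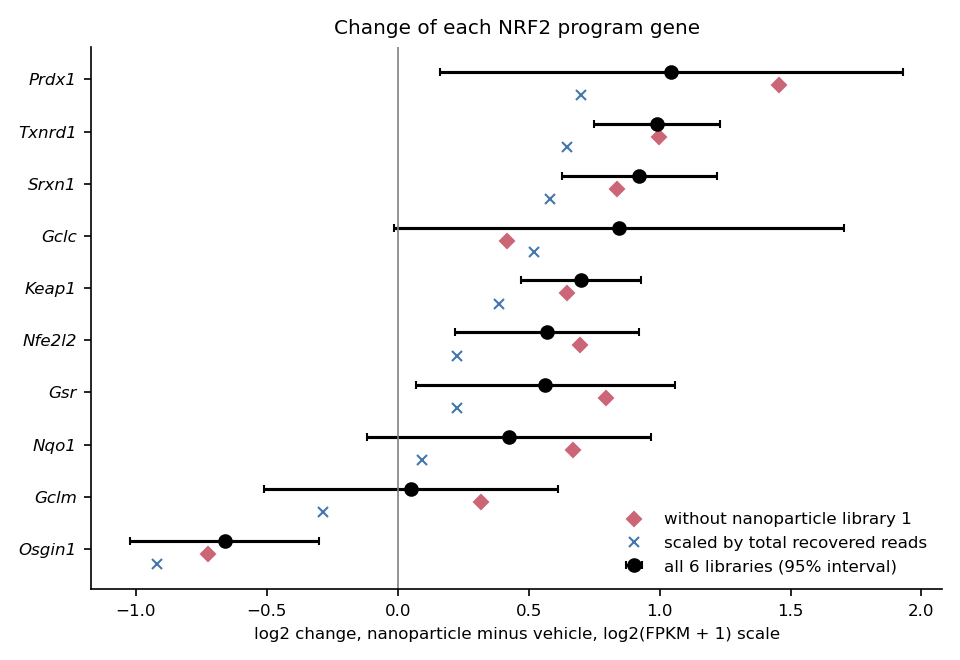
Log2 change of each member on the log2(FPKM + 1) scale (horizontal axis), with the 95% interval of the limma fit over all 6 libraries (black), the value without nanoparticle library 1 (diamonds) and the value with scaling by total recovered reads (crosses). Intervals of Prdx1 (0.16 to 1.93) and Gclc (-0.01 to 1.70) are wide, those of Txnrd1 and Keap1 narrow.

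Nanoparticle library 1 split the program into parts. Measured against the vehicle mean on the log2(FPKM + 1) scale, Txnrd1 stood at 0.97 in library 1 and 1.00 in libraries 2 and 3, Srxn1 at 1.09 and 0.84, Keap1 at 0.80 and 0.65, and Osgin1 at -0.53 and -0.73. In these 4 genes library 1 lay within 0.25 of libraries 2 and 3, although for Osgin1 library 3 (1.71 FPKM) stood below the other treated libraries (2.61 and 2.69 FPKM). Prdx1 stood at 0.22 in library 1 and 1.46 in libraries 2 and 3, Gsr at 0.10 and 0.79, Nqo1 at -0.06 and 0.67, and Gclm at -0.48 and 0.32. Nfe2l2 itself was between these patterns, at 0.32 and 0.70. Gclc alone among the members stood far higher in library 1, at 1.70 against 0.42.

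Over all tested genes, the difference between library 1 and libraries 2 and 3 moved with the merged exon length of the gene. The median log2 difference of library 1 from libraries 2 and 3 was -0.44 in the shortest of 4 near-equal length classes (up to 2324 bases), -0.15 and 0.05 in the middle classes, and 0.26 in the longest class (6298 bases and more). These classes were formed after the data were seen. Libraries 2 and 3 in turn stood above vehicle by a median of 0.35 in the shortest class and below it in the longest (-0.23). Library 1 against vehicle varied less with length, from a median of -0.14 in the shortest class to 0.05 in the longest. Annotated lengths were 1553 bases for Nqo1, 2754 for Gsr, 3043 for Prdx1 and 6291 for Gclm, which were low in library 1, and 3766 for Gclc, which was high. Srxn1 (2820 bases), Osgin1 (2674) and Keap1 (4693) stood 0.25, 0.19 and 0.16 higher in library 1 than in libraries 2 and 3. Txnrd1 (7086 bases) differed by -0.02 and Nfe2l2 (3796) by -0.38. The part of length in the members' values was not tested.

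**Figure D3:**
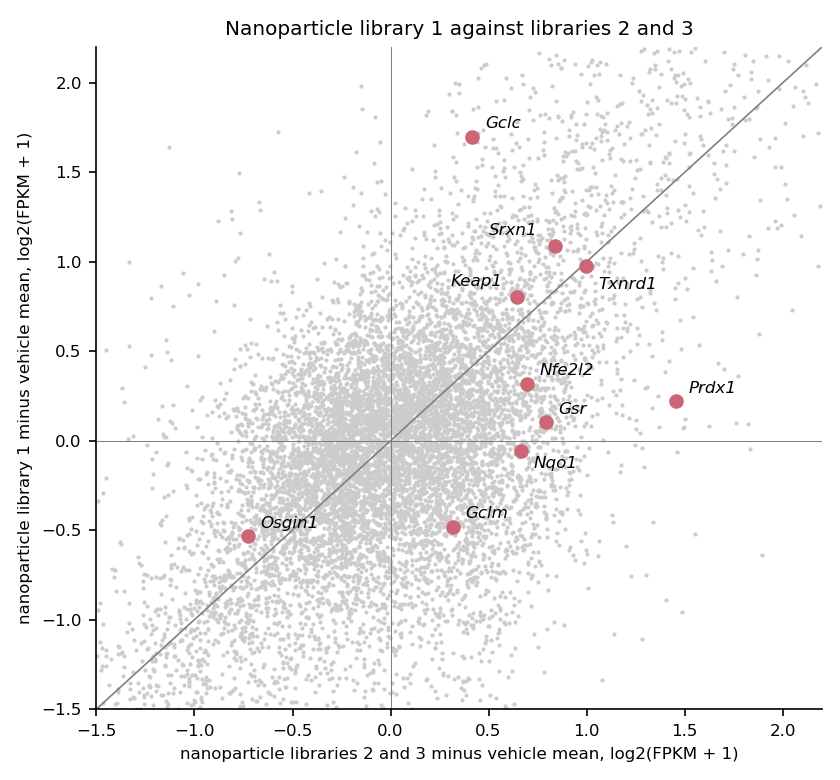
Difference from the vehicle mean in nanoparticle library 1 (vertical axis) against libraries 2 and 3 (horizontal axis), both in log2(FPKM + 1), for the 10 members (labelled) and all other tested genes (grey, those beyond the axes not drawn). The diagonal marks equal change. Txnrd1 lies on it, Gclc far above, Prdx1 far below.

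Ratios within a library do not depend on the scale between libraries, and 4 were compared between partner genes, with exact two-sided permutation tests that cannot give a p below 0.1 with 3 libraries per group. The ratio of Gclm to Gclc was 3.77, 3.36 and 3.31 in vehicle and 0.721, 2.91 and 3.50 with nanoparticles, so the modifier transcript exceeded the catalytic one in every library except nanoparticle library 1. The difference in group means was -0.84 on the log2 scale (exact permutation p = 0.3, Benjamini-Hochberg adjusted p = 0.6 over 4 ratios). Nfe2l2 exceeded Keap1 15.8, 14.7 and 14.1 times in vehicle and 10.1, 14.8 and 14.7 times with nanoparticles (exact permutation p = 0.6, adjusted p = 0.8). The ratio of Txnrd1 to Gsr was 1.97, 2.02 and 1.95 in vehicle and 3.64, 2.29 and 2.25 with nanoparticles. It was higher in all 3 treated libraries, by 0.42 on the log2 scale, with an exact permutation p of 0.1, the lowest possible here (adjusted p = 0.4). The ratio of Srxn1 to Prdx1 was 0.0462, 0.0434 and 0.0460 in vehicle and 0.0830, 0.0314 and 0.0279 with nanoparticles (exact permutation p = 1.0, adjusted p = 1.0), with library 1 above the vehicle range and libraries 2 and 3 below it.

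**Figure D4:**
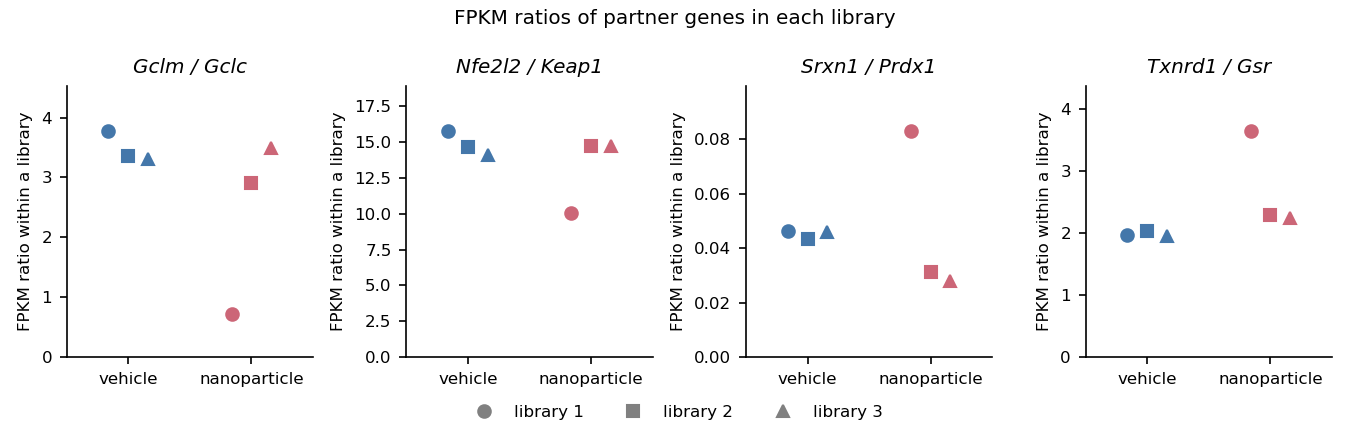
Ratio of FPKM between partner genes within each library (vertical axes, each starting at 0), by group. Symbols mark the library number. Nanoparticle library 1 (circles) stands apart from libraries 2 and 3 in all 4 ratios, most of all for Gclm to Gclc (0.721 against 2.91 and 3.50).

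FPKM are per length, so levels can be set side by side between genes. In vehicle the order of mean levels was Prdx1, Nfe2l2, Srxn1, Txnrd1, Gclm, Gsr, Nqo1, Gclc, Keap1 and Osgin1, and no neighbours in this order overlapped in their 3 libraries. With nanoparticles the order was the same except that Gsr passed Gclm. There the ranges of Nfe2l2 and Srxn1, of Gsr and Gclm, of Gclm and Nqo1, and of Nqo1 and Gclc overlapped. Within a library, Gsr exceeded Gclm and Gclm exceeded Nqo1 in all 3 nanoparticle libraries, while Nfe2l2 exceeded Srxn1, and Nqo1 exceeded Gclc, in libraries 2 and 3 but not in library 1.

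Genes with a pattern most like Nfe2l2 and Nqo1 were sought by the smallest root mean square difference over the 6 libraries, after centring each gene on its vehicle mean of log2(FPKM + 1), among 6665 genes with at least 5 FPKM in the higher group. For Nfe2l2 they were Aga (0.0287), Plod3 (0.0431) and Ap3s1-ps1 (0.0453). Aga, the lysosomal aspartylglucosaminidase gene, was at 14.8, 13.3 and 14.0 FPKM in vehicle and 17.0, 22.8 and 23.3 FPKM with nanoparticles. The nearest member was Gsr (0.114), followed by Nqo1 (0.175), and the farthest was Osgin1 (0.905). For Nqo1 they were Tgds (0.0843), Adap1 (0.0879) and St3gal5 (0.0887), genes in which libraries 2 and 3 lay above the vehicle range and library 1 lay inside it (Tgds, St3gal5) or just below it (Adap1).

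Regulators around NRF2 moved in both directions. Of 12 genes for KEAP1-linked degradation, MAF partners and competitors, all tested, 5 were higher and 1 was lower, where 17.0% and 16.2% of all tested genes were. The median log2 change was 0.42 (all tested genes -0.001). Sqstm1 encodes p62, an autophagy receptor that binds KEAP1 and is itself an NRF2 target. It rose from 89.8, 90.6 and 87.0 FPKM to 716, 497 and 469 FPKM (log2 change 2.61, SE 0.186, limma adjusted p = 2.5e-04), and was highest in library 1. The small MAF genes Maff and Mafg, whose proteins pair with NRF2 on DNA, rose as well. Maff went from 8.90, 9.61 and 9.38 to 38.9, 33.8 and 31.3 FPKM, a log2 change of 1.79 (limma adjusted p = 1.6e-04), and Mafg from 16.8, 15.7 and 15.5 to 30.9, 28.6 and 27.8 FPKM (log2 change 0.82, limma adjusted p = 0.00133). The other genes past the threshold, Mafk (log2 change 0.67), Nfe2l1 (0.60) and Bach1 (-0.75), were named after their values were seen. Mafk and Nfe2l1 did not pass by total reads (adjusted p = 0.124 and 0.136). Bach1, a repressor that competes with NRF2 for the same DNA elements, fell from 11.9 ± 0.556 to 6.76 ± 1.62 FPKM (SD with n = 3 each; limma adjusted p = 0.0130). Cul3, the scaffold of the ligase that KEAP1 serves, was at 15.6 ± 0.257 FPKM in vehicle and at 21.2, 17.0 and 16.7 FPKM with nanoparticles and did not pass (limma adjusted p = 0.224). With rescaling to equal sums 2 genes of this list were higher and 1 lower, Sqstm1, Maff and Bach1, where 8.28% and 39.7% of all tested genes were.

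Of 16 genes of glutathione use, 15 were tested, 8 were higher and none lower (17.0% and 16.2% of all tested genes), with a median log2 change of 0.56. The leading genes were both chains of the cystine importer. Slc3a2, its heavy chain, rose from 80.0, 81.5 and 78.3 to 247, 271 and 272 FPKM (log2 change 1.71, SE 0.108, limma adjusted p = 1.6e-04). Slc7a11, its light chain and a classical NRF2 target, rose from 25.2, 26.1 and 27.9 to 85.1, 64.6 and 58.4 FPKM (log2 change 1.35, SE 0.159, limma adjusted p = 0.00142). Mgst1, a microsomal glutathione transferase, went from 27.5, 22.2 and 24.6 to 38.0, 39.4 and 43.4 FPKM, a log2 change of 0.68 (limma adjusted p = 0.00642). Gpx1, a glutathione peroxidase, showed the split of library 1, at 843 ± 27.7 FPKM in vehicle and 280, 1026 and 1167 FPKM with nanoparticles, and did not pass (log2 change -0.28, limma adjusted p = 0.730). By total reads and by equal sums 3 genes of this list were higher and 0 lower in each case, with medians of 0.22 and 0.10. Of all tested genes, 10.4% were higher and 33.8% lower by total reads, and 8.28% and 39.7% by equal sums. Slc3a2, Slc7a11 and Mgst1 passed by total reads, while by equal sums Gpx4 passed and Mgst1 did not (limma adjusted p = 0.137).

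Among 10 other thioredoxin and peroxiredoxin genes, all tested, 3 were higher and none lower (17.0% and 16.2% of all tested genes), with a median log2 change of 0.27. Prdx5, a peroxiredoxin of mitochondria and peroxisomes, rose from 127, 128 and 123 to 506, 625 and 735 FPKM (log2 change 2.28, SE 0.167, limma adjusted p = 2.6e-04). Txn1, thioredoxin itself and the substrate of thioredoxin reductase 1, rose from 245, 247 and 240 to 459, 622 and 772 FPKM (log2 change 1.30, SE 0.208, limma adjusted p = 0.00445). Prdx6 went from 49.9, 53.7 and 53.9 to 66.5, 84.6 and 94.4 FPKM, a log2 change of 0.62 (limma adjusted p = 0.0230) that did not pass by total reads (adjusted p = 0.157). The mitochondrial pair Txn2 (log2 change -0.22) and Txnrd2 (0.14) did not pass. The median of this list turned to -0.03 by total reads and to -0.15 by equal sums, where 2 genes were higher and 3 lower. By equal sums 8.28% of all tested genes were higher and 39.7% lower.

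Of 9 genes of NADPH supply, all tested, 1 was higher and 2 were lower, near the 17.0% and 16.2% of all tested genes, and the median log2 change was -0.20. Without nanoparticle library 1, 4 were higher and 4 lower, where 34.3% and 30.5% of all tested genes were. Idh1, the cytosolic NADP-linked isocitrate dehydrogenase, fell from 53.7, 49.7 and 53.1 to 13.2, 27.8 and 30.7 FPKM (log2 change -1.18, SE 0.305, limma adjusted p = 0.0274), and Me2, a mitochondrial malic enzyme, had a log2 change of -0.41 (limma adjusted p = 0.0421). Me1, the cytosolic malic enzyme and an NRF2 target, rose from 2.10, 1.77 and 1.69 to 5.16, 4.27 and 4.49 FPKM, a log2 change of 0.98 (limma adjusted p = 0.00117), and was named after its values were seen. The pentose phosphate genes G6pdx (log2 change 0.42, limma adjusted p = 0.0522), Pgd (0.33), Taldo1 (-0.20) and Tkt (-0.37) did not pass, and Taldo1 and Tkt were lowest in nanoparticle library 1. The calls of Idh1 and Me2 were lost when any vehicle library was left out.

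Of 16 other NRF2 targets, 14 were tested, 3 were higher and 1 lower, near or below the 17.0% and 16.2% of all tested genes. Their median log2 change was 0.25, which turned to -0.09 by total reads and to -0.22 by equal sums. By total reads 2 were higher and 4 lower, and by equal sums 1 was higher and 4 were lower. Of all tested genes, 10.4% were higher and 33.8% lower by total reads, and 8.28% and 39.7% by equal sums. Hmox1, the heme oxygenase, rose from 276, 279 and 281 to 1113, 808 and 768 FPKM (log2 change 1.66, SE 0.179, limma adjusted p = 0.00102). Fth1, the ferritin heavy chain, rose from 17590, 16432 and 16050 to 33243, 35542 and 37849 FPKM (log2 change 1.09, SE 0.253, limma adjusted p = 0.0184), and did not pass by equal sums (adjusted p = 0.0684). Akr1b8, an aldo-keto reductase named after its values were seen, had a log2 change of 0.71 (limma adjusted p = 0.0302), and did not pass by total reads (0.38, adjusted p = 0.130) or by equal sums (0.26, adjusted p = 0.160). Ephx1, the microsomal epoxide hydrolase, went the other way and fell from 39.6, 38.1 and 35.5 to 11.5, 15.5 and 17.0 FPKM (log2 change -1.32, SE 0.156, limma adjusted p = 0.00141). Cat, the catalase gene, was at 96.0 ± 2.78 FPKM in vehicle and 93.3, 89.4 and 75.5 FPKM with nanoparticles and did not pass (limma adjusted p = 0.360).

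**Figure D5:**
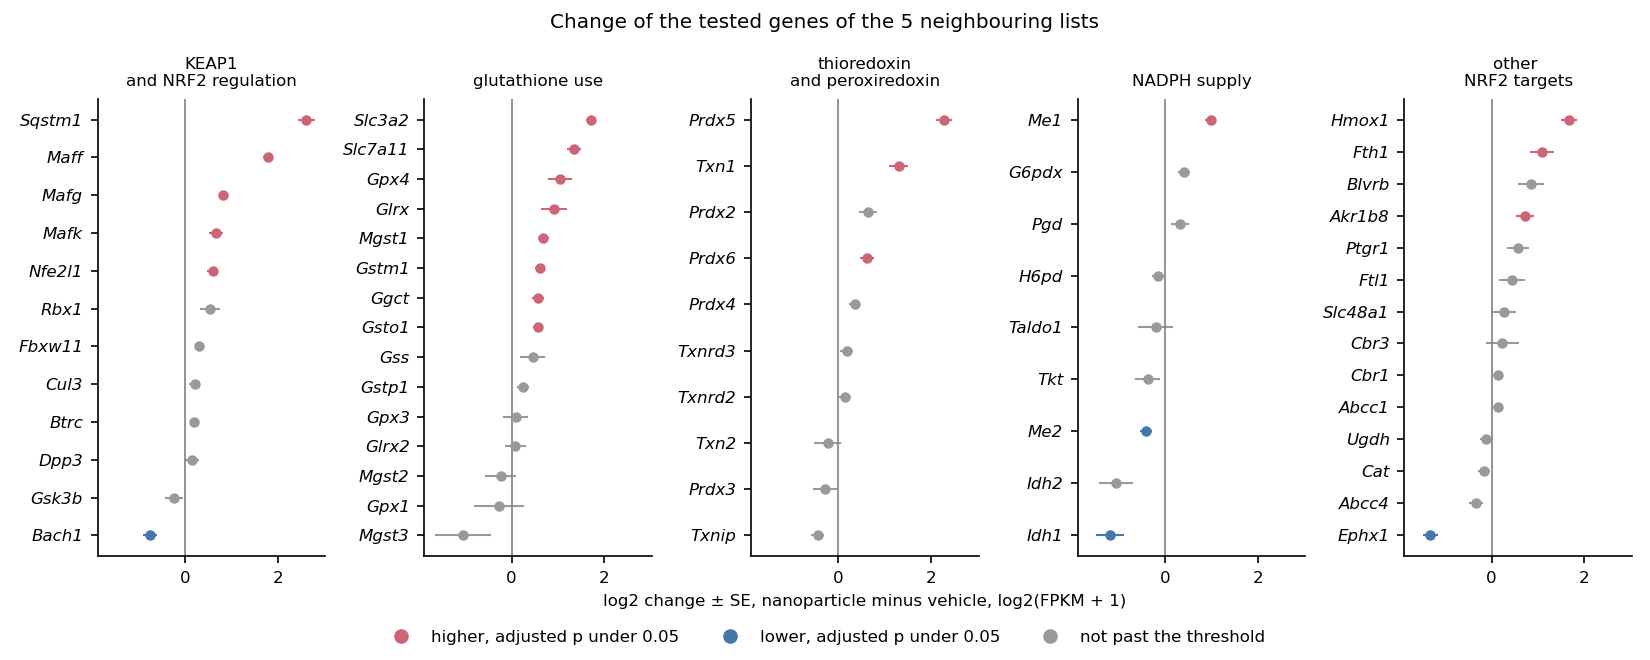
Log2 change ± SE on the log2(FPKM + 1) scale (horizontal axes) of every tested gene in the 5 neighbouring lists, coloured where past an adjusted p of 0.05 in the limma fit over all 6 libraries. Sqstm1, Prdx5, Maff, Slc3a2 and Hmox1 had the largest increases, and Ephx1 and Idh1 the largest decreases past the threshold.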

How the data were processed

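RNA was sequenced from 3 vehicle and 3 nanoparticle libraries, grouped by title. The authors deposited a pair of tables with the same 140388 values. No header or label names their unit. They were taken to be FPKM made by the authors, because 95.8% to 96.1% of values above 0 turned into whole reads (tolerance 0.01) once multiplied by GENCODE M21 merged exon length and a library constant. For 478 abundant genes (median of at least 200 reads) another length was needed and found. The constants behave as median-of-ratios factors do, so a change common to most genes cannot be seen on the deposited scale. Recovered depth was 17283338 to 21978652 reads, which sets the counting error.

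Per the submitters' processing notes, the authors used CASAVA, STAR 2.5, HTSeq, edgeR 3.16.5 and DESeq2, and the builds hg19 and mm10 are both named, with no role. Strand and the treatment of shared reads are not given in the sources used here. Gene positions follow GENCODE M21 on GRCm38. Keap1, Gclm and Txnrd1 overlap genes of the opposite strand, listed at 4.42 FPKM at most. On their own strand, Nfe2l2 overlaps Gm24996 (4.95 FPKM at most) and Gsr overlaps Gm24727 (1.26 FPKM at most). Gclm overlaps Gm6061 on its own strand, for which no values are listed.

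A gene was tested if 3 or more libraries held 1 FPKM or more. Tests used limma 3.58.1 in R 4.3.3 on log2(FPKM + 1), with group as the single term, eBayes with trend, Benjamini-Hochberg adjustment over 10682 genes and a threshold of 0.05, and were tested on simulated data. This scale understates changes of low genes. The simulated libraries were all given the vehicle spread, so they do not cover the wider spread among nanoparticle libraries. Ratios were tested with scipy 1.17.1. Chi-square per degree of freedom of the reads was 2.91 to 5.62 among vehicle libraries and 12.58 to 255.56 among nanoparticle libraries, so no library was a repeat. Named genes were the members, Hmox1 and Slc7a11, up to 3 genes per list (past the threshold, groups apart, at least 5 FPKM, smallest adjusted p first), and the 3 patterns nearest to Nfe2l2 and to Nqo1. Members and lists were chosen with earlier results of these data known. Alternatives were a pseudocount of 0.1, no filter, 2 other scalings, no trend, the replicate number as a block, and leaving out each library. Protein sequences were not analysed here.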

Additional observations from a re-analysis of the deposited data

How the results depend on the processing

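Over the settings other than leaving out a library, 92 values stayed the same, 9 counts moved, 6 calls were lost and 3 values changed sign. Log2 changes counted as the same kept their sign and side of the threshold, and ratios their sign. Counts did so if the total passing stayed within 1.5 times, whatever the split of higher and lower. All tested genes thus counted as the same by equal sums, at 884 higher and 4241 lower against 1817 and 1733. With rescaling to equal sums of FPKM, 48.0% of all tested genes passed (8.28% higher, 39.7% lower). There 2 members passed (1 higher, 1 lower), and 3 genes of KEAP1 and NRF2 regulation (2 higher), 3 of glutathione use (all higher), 5 of thioredoxin and peroxiredoxin (2 higher) and 5 of NADPH supply (1 higher). Of the other NRF2 targets 5 passed (1 higher, 4 lower). The log2 changes were then 0.10 for Nfe2l2, 0.29 for Keap1 and 0.46 for Srxn1, none past the threshold, and the sign turned for Nqo1 (-0.033) and Gclm (-0.42). By total reads Nfe2l2 (0.23) lost its call, Gclm turned (-0.29) and 3 glutathione genes passed, where 44.2% of all tested genes passed. Without the trend 5 thioredoxin and peroxiredoxin genes passed (33.3% of all tested genes), and without the filter 1 NADPH gene (14.4% of 23398 genes). The cause was not tested.

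With the replicate number as a block 3 members passed, all higher, where 26.1% of all tested genes passed, and Nfe2l2 (0.57, limma adjusted p = 0.0817) and Osgin1 (-0.66, limma adjusted p = 0.0514) lost their calls. Deviations of same-numbered libraries correlated at 0.0654, 0.113 and -0.0577, so the pairing rests on a shared number only, and not every library correlated best with its own number.

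Leaving out 1 library at a time gave 2141 to 6923 called genes and 3 to 10 members, the highest without nanoparticle library 1 and the lowest of all genes without vehicle library 3. The lists ranged from 3 to 10 (KEAP1 and NRF2 regulation), 3 to 13 (glutathione use), 2 to 6 (thioredoxin and peroxiredoxin), 1 to 8 (NADPH supply) and 2 to 11 genes (other targets). Each list was highest without nanoparticle library 1, where 64.8% of all tested genes passed, 34.3% higher and 30.5% lower. In that setting 8 genes were higher and 2 lower in KEAP1 and NRF2 regulation, and 12 and 1 in glutathione use. The split was 5 and 1 in thioredoxin and peroxiredoxin, 4 and 4 in NADPH supply, and 8 and 3 in other targets (median log2 change 0.61). Log2 changes ranged from 0.50 to 0.70 for Nfe2l2, 0.65 to 0.73 for Keap1, 0.25 to 0.67 for Nqo1, 0.42 to 1.12 for Gclc, -0.08 to 0.32 for Gclm, 0.96 to 1.01 for Txnrd1, 0.84 to 0.97 for Srxn1, 0.80 to 1.46 for Prdx1, 0.43 to 0.79 for Gsr and -0.74 to -0.52 for Osgin1. The Gclm to Gclc difference ranged from -1.26 to -0.12, Nfe2l2 to Keap1 from -0.29 to -0.01, Srxn1 to Prdx1 from -0.61 to 0.18 and Txnrd1 to Gsr from 0.20 to 0.54. Gclm turned without nanoparticle library 2 (-0.084) or 3 (-0.079), and Srxn1 to Prdx1 without library 2 (0.09) or 3 (0.18). A vehicle group of 3 and reads of 88 to 262 for Osgin1 limit the precision.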
